A study of Ovis aries with 36 samples.

Results

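The elastic fibre and microfibril genes considered here were ELN, FBN1, FBN2, FBLN1, FBLN2, FBLN5, LTBP1, LTBP2, LTBP3 and LTBP4. They were chosen by name, with the counts of all loci that carry the same gene name summed within a tissue. All 10 were found in every tissue, among 21603 genes named in all 3 tissues.

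An elastic fibre is a core of cross-linked elastin laid down on a scaffold of fibrillin microfibrils, and it gives tissues such as skin, vessel walls and the connective tissue around muscle their recoil. Fibulins bind elastin and the microfibril and help to join them. The latent transforming growth factor beta (TGF-beta) binding proteins sit in the same matrix, where several of them hold the growth factor in an inactive store and others act mainly in fibre assembly.

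The study fed Polypay ewes, all bred to a single sire, haylage of alfalfa (HY), corn (CN) or dried corn distillers grains (DG) as the main energy source, and sampled their fetuses late in gestation. RNA of the fetal longissimus dorsi muscle, subcutaneous adipose depot and perirenal adipose depot was combined by sex and diet into pools before sequencing. The 36 libraries thus held 4 pools for each of 3 diets in each of 3 tissues, with 2 female pools (F1 and F2) and 2 male pools (M1 and M2) per diet. The pools drew on 26 fetuses of 15 dams, some pools of a diet shared a dam, and the same 12 pools were taken to stand behind the libraries of all 3 tissues. Pools held unequal numbers of fetuses, and CN pool F2 is listed with a single fetus, so the spread between pools is not that between fetuses, and there was no group without one of these diets.

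Levels are given as CPM, the count of a gene scaled to a common library size, after TMM scaling over the 36 libraries. Total counts per library were 13749762 to 29625146 for muscle, with 6705766 to 20272024 for the subcutaneous and 7802700 to 15913813 for the perirenal depot. FDR stands for the Benjamini-Hochberg adjusted p-value of edgeR's quasi-likelihood test over all features tested, and a gene was called at FDR ≤0.05. The labelled tissues held their defining transcripts: ADIPOQ, a hormone of adipocytes, was at 690 to 5823 CPM in subcutaneous and 2424 to 9343 CPM in perirenal pools against 3.12 to 40.2 CPM in muscle. UCP1, the uncoupling protein of brown fat, was at 369 to 1033 CPM in perirenal pools, 10.2 to 138 CPM in subcutaneous pools and at most 0.228 CPM in muscle. Of the other brown fat markers listed, CIDEA ran the same way, at medians of 124.9, 28.69 and 1.448 CPM. PPARGC1A ran the other way, at 1.93 to 7.18 CPM in perirenal, 15.4 to 47.4 CPM in subcutaneous and 42.8 to 60.7 CPM in muscle pools.

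The subcutaneous libraries also carried skeletal muscle transcripts. The summed level of the 8 skeletal muscle markers found there, out of 12 listed, ran from 874 to 133000 CPM in the subcutaneous pools against 121200 to 182400 CPM in muscle and 8.41 to 656 CPM in perirenal pools. In 6 subcutaneous pools (CN F1, CN F2, DG F1, DG F2, DG M2 and HY F2) it exceeded 14570 CPM, set at 10% of the muscle median. Values without them, a choice made after the data were seen, are given where they end a call or move a fold by over 1.5 times. Leaving them out keeps CN M1 and M2, DG M1, and HY F1, M1 and M2, so that the subcutaneous DG group is then 1 pool, assumed to vary like the other groups, and the CN group holds male pools only. In bulk RNA, fewer cells of a type cannot be told apart from less RNA per cell, which holds for every value below.

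The members lie on 8 chromosomes of the sheep assembly Oar_v3.1 used by the study. In the muscle gene models, ELN spans chr24:33113864-33286879, FBN1 chr7:58614661-58893030 and FBN2 chr5:23029255-23264974. FBLN1 spans chr3:219920950-220011660, FBLN2 chr19:58161894-58180818 and FBLN5 chr18:55502405-55594721. LTBP1 spans chr3:90487608-90947819, LTBP2 chr7:82701262-82812634, LTBP3 chr21:43015534-43043304 and LTBP4 chr14:49041926-49070155. The span of the ELN locus also holds EIF4H, LIMK1 and SNORA32. Whether strand was used in counting is not given in the sources used here, so reads of overlapping neighbours cannot be told apart from those of a member where the models overlap.

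Elastin, the fibril core, was highest in muscle. ELN stood at 176 CPM in the lowest, 269 in the median and 329.6 in the highest of the 12 muscle pools. In subcutaneous adipose the corresponding values were 13.1, 62.7 and 161 CPM, and in perirenal adipose 5.40, 22.5 and 165 CPM. No adipose pool reached the lowest muscle pool. The log2 fold change was -1.85 ± 0.36 (SE) for subcutaneous against muscle, 3.59-fold lower, and -2.95 ± 0.38 for perirenal against muscle, 7.73-fold lower. Without the 6 subcutaneous pools rich in muscle transcripts ELN was 6.13-fold lower in subcutaneous adipose than in muscle. The adipose depots overlapped widely, with subcutaneous above perirenal by 1.11 ± 0.36 on the log2 scale (FDR = 0.00735). That call was lost without the same 6 pools (0.28, FDR = 0.498) and without subcutaneous pool CN F1 alone (FDR = 0.0698).

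The fibrillins, which form the microfibril itself, did not share a tissue pattern. FBN1, the main fibrillin of postnatal microfibrils, was at 307 ± 71.5 CPM (mean ± SD, n = 12) in muscle, against 426 ± 159 in the subcutaneous and 282 ± 70.2 in the perirenal depot. Muscle and perirenal adipose did not differ beyond their spread (log2 -0.12, FDR = 0.464, and 0.24 when libraries were scaled by their totals only), and subcutaneous adipose was above muscle by 0.46 (FDR = 0.00700) and above perirenal adipose by 0.58. Without the 6 pools rich in muscle transcripts the subcutaneous difference from muscle was 0.32 (FDR = 0.0795).

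FBN2, a fibrillin known mainly from fetal tissue, was low in perirenal adipose. Its mean was 23.5 ± 5.63 CPM in muscle and 23.9 ± 14.2 in subcutaneous adipose against 6.43 ± 4.96 CPM in perirenal adipose (n = 12 each). The perirenal level was 3.94-fold below muscle and 4.0-fold below subcutaneous adipose, and muscle and subcutaneous adipose did not differ beyond their spread (log2 0.02, FDR = 0.945). Among the subcutaneous pools FBN2 went with the skeletal muscle markers, with r = 0.68 over 12 pools, and without the 6 pools rich in those markers FBN2 was still above perirenal adipose by 1.47 on the log2 scale.

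Among the fibulins, FBLN2, which binds fibrillin and elastin, stood at 25.3, 49.3 and 81.6 CPM in the lowest, median and highest muscle pool. It was at 0.450, 3.61 and 13.4 CPM in subcutaneous adipose and at 4.07, 8.58 and 33.1 CPM in perirenal adipose. All subcutaneous pools were thus below all muscle pools, and only the highest perirenal pool reached into the muscle range. FBLN2 was 9.98-fold lower in subcutaneous adipose (log2 -3.32 ± 0.33) and 5.16-fold lower in perirenal adipose (-2.37 ± 0.31) than in muscle. The subcutaneous difference was 19.1-fold (log2 -4.26) without the 6 pools rich in muscle transcripts. Subcutaneous adipose was below perirenal adipose by 0.95 ± 0.32 on the log2 scale (FDR = 0.0102), and by 1.95 without those 6 pools. The subcutaneous values rest on 3 to 194 counts per pool.

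FBLN5, which tethers elastin to the cell surface and is needed for fibre assembly, ran the other way. It was at 73.0 ± 15.5 CPM in muscle, against 151 ± 41.5 in the subcutaneous and 139 ± 43.1 in the perirenal depot (n = 12 each). The depots were 2.05-fold and 1.89-fold above muscle, and they did not differ from each other beyond their spread (log2 0.12, FDR = 0.476). FBLN1, a fibulin of elastic fibres and basement membranes, was at 43.9 ± 5.22, 50.9 ± 24.02 and 29.7 ± 15.5 CPM in muscle, subcutaneous and perirenal adipose. Perirenal adipose was below both others (log2 -0.62 against muscle, FDR = 0.0120), and the call against muscle was lost when libraries were scaled by their totals only (-0.26, FDR = 0.259). The call against subcutaneous adipose was lost without the 6 pools rich in muscle transcripts (0.53, FDR = 0.0634).

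The 4 latent TGF-beta binding proteins split evenly. LTBP1 and LTBP2 were higher in the adipose depots, and LTBP3 and LTBP4 were higher in muscle. LTBP2, which does not hold latent TGF-beta and binds microfibrils, was at 7.19, 10.3 and 15.3 CPM in the lowest, median and highest muscle pool against 35.2, 74.1 and 113 CPM in subcutaneous and 71.4, 90.8 and 118 CPM in perirenal adipose. Neither depot overlapped muscle, and the differences were 6.70-fold (log2 2.74) and 8.56-fold (log2 3.1). Subcutaneous was below perirenal adipose by 0.35 (FDR = 0.0185), a call lost without the 6 pools rich in muscle transcripts (FDR = 0.374). Over the 12 subcutaneous pools LTBP2 ran opposite to the skeletal muscle markers, with r = -0.68.

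LTBP1, a carrier of latent TGF-beta, was at 64.4 to 115 CPM in muscle, against 202 to 664 CPM in the subcutaneous and 101 to 271 CPM in the perirenal depot. It was 3.68-fold higher in subcutaneous and 2.02-fold higher in perirenal adipose than in muscle, and the depots differed by 0.87 on the log2 scale. LTBP4, which takes part in elastin assembly through FBLN5, was at 94.0 ± 34.9 CPM in muscle, 59.8 ± 20.7 in perirenal and 30.5 ± 16.3 in subcutaneous adipose (n = 12 each). It was 2.99-fold lower in subcutaneous adipose than in muscle. The perirenal difference from muscle was 1.55-fold (log2 -0.64, FDR = 0.00475), and under scaling by library totals it was -0.27 (FDR = 0.220). LTBP3, a carrier of latent TGF-beta, was the lowest counted, with 2 to 347 counts per pool, and was at 8.45 ± 4.28 CPM in muscle, against 3.46 ± 1.82 in the subcutaneous and 2.67 ± 1.79 in the perirenal depot. The subcutaneous depot was 2.31-fold lower than muscle, and 3.77-fold without the 6 pools rich in muscle transcripts. The perirenal depot was 3.24-fold lower, and the depots did not differ from each other beyond their spread (log2 0.49, FDR = 0.115). Without the same 6 pools the log2 difference between the depots had the other sign (-0.28).

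**Figure D1:**
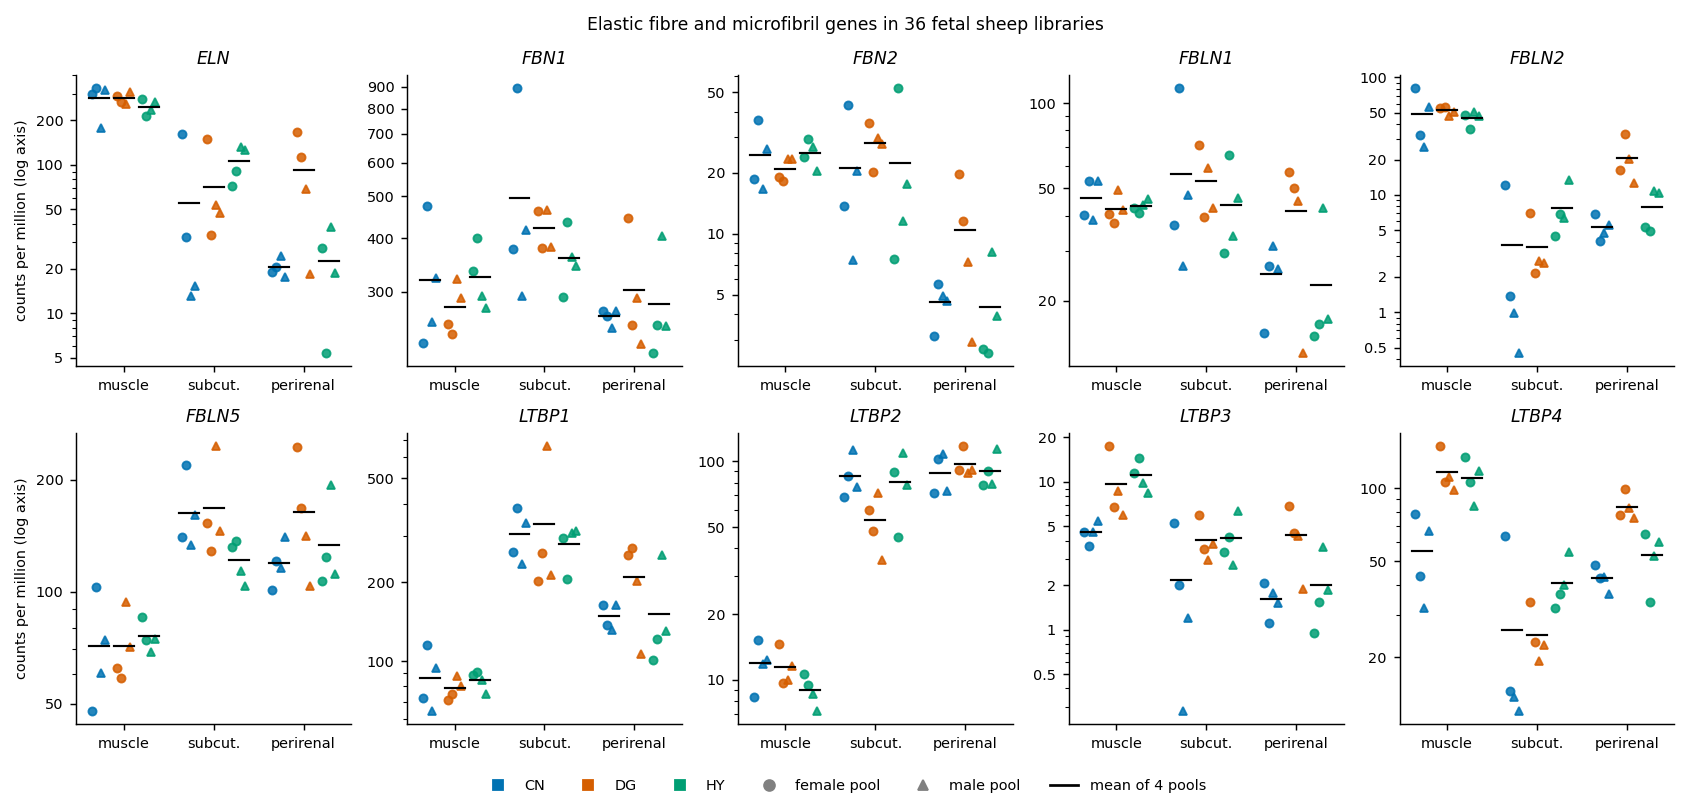
Level of each of the 10 genes in every pool, as CPM on a log axis, by tissue and maternal diet (circles are female pools, triangles male pools, bars the mean of 4 pools). ELN, FBLN2, LTBP3 and LTBP4 sit highest in muscle, LTBP1, LTBP2 and FBLN5 sit lowest there, and the 12 adipose pools of either depot spread more widely on the log axis than the muscle pools for ELN and FBLN2.

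Of the 10 members, 8 were called between subcutaneous adipose and muscle (4 higher, 4 lower), against 72.2% of the 13280 genes tested. For perirenal adipose against muscle 9 were called (3 higher, 6 lower), against 79.7% of all genes, and between the depots 8 were called (5 higher in subcutaneous adipose), against 66.8%. The members' shares are thus close to those of all genes, and what sets the members apart from one another is direction and size. Scaling by library totals alone put the median log2 fold change of all genes at 0.34 for perirenal against muscle, 0.16 for subcutaneous against muscle and -0.17 for subcutaneous against perirenal adipose, where TMM put it at -0.03, -0.009 and 0.02. With library totals 7 members were called in the first of these comparisons, where 10740 of the 13280 genes were. Without the 6 subcutaneous pools rich in muscle transcripts, 7 members were called between subcutaneous adipose and muscle, where 9907 of 13823 genes were. Between the depots 5 members were then called (FBLN2, FBN1, FBN2, LTBP1 and LTBP4). Of all genes 7558 of 13823 were called there, against 8875 of 13280 with all pools, so the share of all genes called fell as well. With the 12 pools as a block across tissues, no member's tissue call changed.

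**Figure D2:**
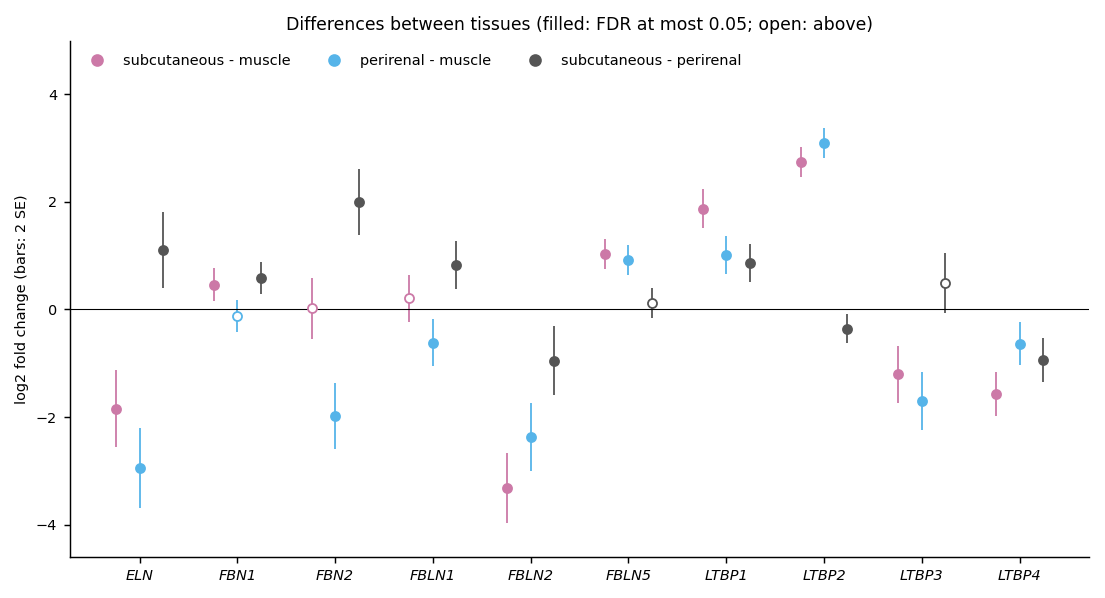
Log2 fold change between tissues for each gene with bars of 2 SE to each side, filled where FDR ≤0.05. LTBP2 lies at 2.74 and 3.1 and FBLN2 at -3.32 and -2.37 against muscle, and the 2 adipose depots differ by at most 2.0 on this scale.

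The first diet question was whether the fetal muscle of the 3 maternal diets differed in these genes. In muscle, LTBP4 was lower under CN than under either other diet, LTBP3 was lower under CN than under HY, and the other 8 members were not called. For LTBP4 the CN pools F1, F2, M1 and M2 were at 78.5, 43.2, 31.9 and 66.8 CPM, the DG pools at 149.5, 106, 112 and 98.2 CPM, and the HY pools at 134, 107, 84.4 and 117 CPM. Every CN pool lay below every DG and HY pool. LTBP4 rose by 1.07 ± 0.24 (SE) on the log2 scale in DG vs. CN, 2.1-fold (FDR = 0.0491), and by 1.01 ± 0.24 in HY vs. CN, 2.01-fold (FDR = 0.0423).

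For LTBP3 the CN pools were at 4.58, 3.70, 4.55 and 5.43 CPM, the DG pools at 17.5, 6.70, 8.67 and 5.92 CPM, and the HY pools at 11.5, 14.6, 9.84 and 8.43 CPM. The CN pools again lay below all others, narrowly so for the lowest DG pool. LTBP3 rose 2.43-fold in HY vs. CN (log2 1.28 ± 0.30, FDR = 0.0421), and in DG vs. CN the log2 fold change was 1.07 ± 0.30 without a call (FDR = 0.108). Between DG and HY the log2 differences were 0.07 for LTBP4 (interval of 2 SE to each side -0.40 to 0.53) and -0.21 for LTBP3 (-0.79 to 0.37). The first pair of comparisons shares its CN pools.

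Read against the background, 1 of 10 members was called in DG vs. CN where 1.02% of 18156 features were, and 2 of 10 in HY vs. CN where 2.95% were. In DG vs. HY no member was called by edgeR's test, and 0.0% of features were (396 at an unadjusted p below 0.05; DESeq2 called 2 and the edgeR likelihood-ratio test 3). Of all 13280 genes measured in the 3 tissues, 9.50% had DG and CN pools that did not overlap in muscle and 13.7% had HY and CN pools that did not. The calls were near the threshold. With 1 pool left out at a time, LTBP4 was called in 1 of 12 fits for DG vs. CN (FDR 0.0271 to 0.129) and in 3 of 12 for HY vs. CN (0.0320 to 0.144), and LTBP3 in 4 of 12 for HY vs. CN (0.00678 to 0.145).

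The other 8 members in muscle lay between -0.41 and 0.11 on the log2 scale in both comparisons with CN, and the median of the 10 was -0.04 in DG vs. CN and -0.005 in HY vs. CN beside -0.003 and -0.02 over all features. The lowest value was that of LTBP2 in HY vs. CN (-0.41, FDR = 0.258). ELN was at 282 ± 71.4 CPM under CN, 279 ± 25.3 under DG and 246 ± 28.3 under HY (n = 4 each).

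Markers of vessel cells also ran higher in the DG and HY muscle pools. The summed level of the 4 smooth muscle and pericyte markers found, of 5 listed, was 81.1 to 135 CPM for CN pools, against 111 to 153 CPM for DG and 126 to 157 CPM for HY pools. The 4 endothelial markers found, of 5 listed, were at 533 to 643 CPM for CN pools, against 640 to 825 for DG and 664 to 798 for HY pools. Over the 12 muscle pools, r with the smooth muscle and pericyte sum was 0.73 for LTBP3 and 0.67 for LTBP4. With the endothelial sum r was 0.36 and 0.52, and with the total counts of the library 0.37 and 0.63. Their part in the result was not tested.

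In the perirenal depot no member was called by edgeR's test, while all 10 members had higher means under DG than under either other diet. The median log2 fold change of the members was 0.84 in DG vs. CN, with a range of 0.11 to 2.15, beside -0.02 over all 17925 features tested, of which 0.0% were called. ELN, FBLN2, LTBP3, LTBP4 and FBN2 were at an unadjusted p below 0.05, as were 1765 of all features. In DG vs. HY the median was 0.73, with the same 5 members at an unadjusted p below 0.05, and again 0.0% of features were called (1787 at an unadjusted p below 0.05). DESeq2 called 240 features in DG vs. CN and 90 in DG vs. HY, and the likelihood-ratio test 173 and 35. DESeq2 also called FBLN2 in DG vs. HY (FDR = 0.0158). Both comparisons share the DG pools, and the 10 genes share pools and covary, so the common sign is not 10 separate observations.

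FBLN2 was the member whose diets separated most cleanly in perirenal adipose. The DG pools F1, F2, M1 and M2 were at 16.2, 33.1, 20.1 and 12.6 CPM, the CN pools at 6.85, 4.07, 4.72 and 5.56 CPM, and the HY pools at 5.38, 4.91, 10.7 and 10.3 CPM. No DG pool overlapped a CN or HY pool, as was the case for 7.17% of genes in DG against CN and 5.99% in DG against HY. The log2 fold change in DG vs. CN was 1.92 ± 0.34 (SE, 3.78-fold, FDR = 0.0650), and in DG vs. HY it was 1.36 (FDR = 0.284). LTBP4 behaved in the same manner, with DG pools at 77.7, 99.6, 83.1 and 75.6 CPM, CN pools at 48.0, 42.7, 43.1 and 36.7 CPM and HY pools at 64.8, 33.7, 52.4 and 60.2 CPM. Its DG pools lay above all others, with a log2 fold change of 0.95 ± 0.19 in DG vs. CN (1.94-fold, FDR = 0.0735) and 0.64 in DG vs. HY (FDR = 0.333).

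These values of FBLN2 and LTBP4 in DG vs. CN passed the threshold under several other settings. DESeq2 gave FDR = 2.2e-05 for FBLN2 and 0.000877 for LTBP4, and scaling by library totals gave 0.0240 and 0.0297. With the replicate number as a block the FDR was 0.165 for both. Leaving out 1 pool at a time gave FDR 0.0278 to 0.244 for FBLN2 and 0.0163 to 0.272 for LTBP4, with calls for both without DG F1 or without HY F2.

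ELN had the largest perirenal fold change and the widest spread. Its DG pools were at 165, 113, 69.0 and 18.5 CPM, its CN pools at 19.1, 20.6, 24.4 and 17.5 CPM, and its HY pools at 27.5, 5.40, 38.4 and 18.6 CPM. DG pools F1, F2 and M1 lay above all CN and HY pools, while DG M2 lay among them. The log2 fold change in DG vs. CN was 2.15 ± 0.65 (SE, 4.44-fold, FDR = 0.280), and without DG M2 it was 2.50 (FDR = 0.124).

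The same DG M2 pool was low for FBN2, FBLN1 and LTBP3. FBN2 was at 19.7, 11.6, 7.27 and 2.92 CPM in the DG pools against 3.14 to 5.66 CPM in CN pools (log2 1.16, FDR = 0.458). FBLN1 was at 57.2, 50.2, 45.2 and 13.1 CPM in the DG pools against 15.4 to 31.3 CPM in CN pools (log2 0.72, FDR = 0.656). LTBP3 was at 6.91, 4.503, 4.27 and 1.87 CPM in the DG pools against 1.10 to 2.06 CPM in CN pools (log2 1.43, FDR = 0.239), on 12 to 129 counts per pool over the depot. For the remaining members the log2 values were 0.46 for LTBP1, 0.44 for FBLN5, 0.18 for FBN1 and 0.11 for LTBP2. DG M2 also had the highest sum of the 2 keratinocyte markers, at 326 CPM against 5.29 to 8.35 CPM in the other DG pools. The CN pools were at 8.09 to 66.5 CPM and the HY pools at 3.30 to 108 CPM. Over the 12 pools r with this sum was -0.25 for ELN, -0.26 for FBN2, -0.28 for FBLN1 and -0.33 for LTBP3. The part of these markers was not tested.

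Markers of fibroblasts, the main makers of this matrix, varied among the perirenal pools as well. The summed level of all 6 fibroblast markers listed was 7682, 4924, 4624 and 2005 CPM in the DG pools F1, F2, M1 and M2, 2357, 2809, 4939 and 2945 CPM in the CN pools, and 2383, 1806, 5917 and 3352 CPM in the HY pools. DG F1 was the highest of all pools and DG M2 the lowest DG pool, while HY M1 and CN M1 lay above DG F2 and DG M1. Over the 12 perirenal pools, r with this sum was 0.91 for FBLN1, 0.90 for FBN2 and 0.83 for ELN, and lower for FBLN2 (0.53), LTBP4 (0.42) and LTBP2 (0.26). With the marker sum as a covariate, added after the data were seen, the DG vs. CN value was 1.2 for ELN, 0.36 for FBN2, 0.15 for FBLN1 and -0.04 for FBN1. It was 1.69 for FBLN2 (FDR = 0.0637) and 0.90 for LTBP4 (FDR = 0.0861), close to the values without the covariate.

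Smooth muscle and pericyte markers also ran higher in the perirenal DG pools. The sum of the 4 found, of 5 listed, was 689, 1049, 527 and 468 CPM in the DG pools F1, F2, M1 and M2, 381 to 564 CPM in the CN pools and 467 to 736 CPM in the HY pools, and the diets overlapped. Over the 12 pools r with this sum was 0.62 for FBLN2 and ELN and 0.65 for LTBP4. The part of these markers in the result was not tested.

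**Figure D3:**
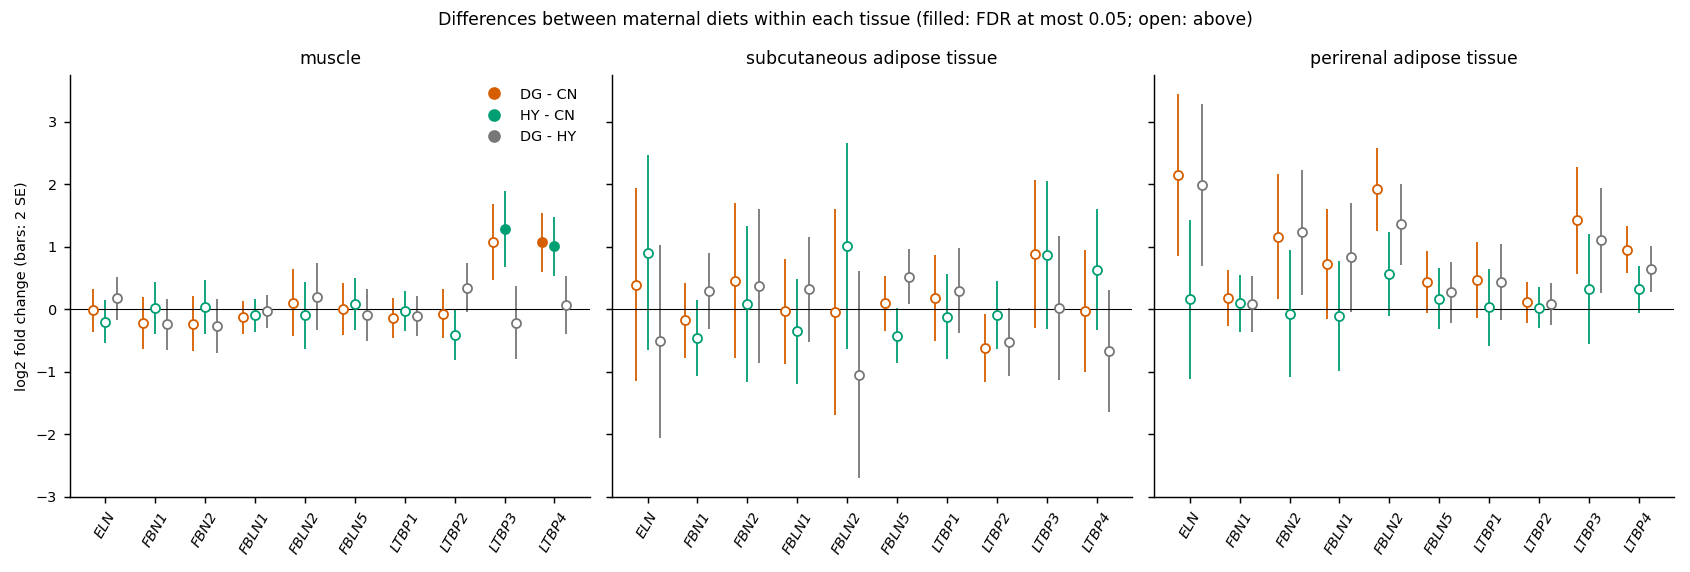
Log2 fold change between diets for each gene in each tissue with bars of 2 SE to each side, filled where FDR ≤0.05. The filled points are LTBP4 in muscle DG vs. CN (1.07) and HY vs. CN (1.01) and LTBP3 in muscle HY vs. CN (1.28), and in perirenal adipose all 10 genes lie above 0 in DG vs. CN.

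HY vs. CN in perirenal adipose gave a member median of 0.13 with a range of -0.11 to 0.56. No member was called by edgeR's test, and 0.0% of features were (420 at an unadjusted p below 0.05; DESeq2 called 3 and the likelihood-ratio test 1).

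In the subcutaneous depot no member was called in any diet comparison by edgeR's test, and 0.0% of the 17744 features were in DG vs. CN, HY vs. CN and DG vs. HY. At an unadjusted p below 0.05 there were 2654, 776 and 3221 features, and DESeq2 called 251, 0 and 809 and the likelihood-ratio test 29, 0 and 235. The member medians were 0.03, -0.005 and 0.15 on the log2 scale. LTBP2 in DG vs. CN (-0.62, FDR = 0.323) and FBLN5 in DG vs. HY (0.52, FDR = 0.241) were the only members at an unadjusted p below 0.05, and no member was called by DESeq2 or the likelihood-ratio test.

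The spread between subcutaneous pools of one diet was wide. ELN was at 161, 32.5, 13.1 and 15.1 CPM in the CN pools F1, F2, M1 and M2, at 149, 33.9, 53.5 and 47.3 CPM in the DG pools, and at 71.8, 91.2, 131 and 127 CPM in the HY pools. CN F1 was the highest pool of all and the other CN pools were the 3 lowest. For FBLN2, CN F1 likewise lay far above the other CN pools, at 12.1, 1.37, 0.983 and 0.450 CPM against 6.94, 2.18, 2.75 and 2.64 CPM in DG and 4.46, 6.93, 6.42 and 13.4 CPM in HY pools. LTBP4 was at 63.5, 14.6, 13.8 and 12.0 CPM in the CN pools, at 34.0, 23.1, 19.4 and 22.6 CPM under DG, and at 32.1, 36.5, 39.7 and 54.7 CPM under HY.

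Comparisons with subcutaneous CN therefore turn on pool CN F1. ELN in HY vs. CN had a log2 fold change of 0.91 ± 0.78 (SE, FDR = 0.944) with it and 2.41 (FDR = 0.120) without it. Without CN F1 the HY vs. CN value was 3.02 for FBLN2 (FDR = 0.101), 1.65 for LTBP4 (FDR = 0.1) and 1.80 for LTBP3 (FDR = 0.193). Without all 6 pools rich in muscle transcripts, CN F1 among them, which left 2 CN and 3 HY pools, the values were 3.04 for ELN (FDR = 0.0658), 3.54 for FBLN2 (FDR = 0.130) and 1.79 for LTBP4 (FDR = 0.106). Over the 12 subcutaneous pools, r with the muscle marker sum was 0.11 for ELN, 0.09 for FBLN2, 0.07 for LTBP4 and 0.34 for LTBP3. With the total counts of the library r was 0.56, 0.47, 0.43 and 0.70 in the same order. CN M1 and CN M2 had total counts of 7109975 and 6705766, the latter the lowest of all libraries, and FBLN2 had 7 and 3 counts there. The part of library depth in these values was not tested.

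**Figure D4:**
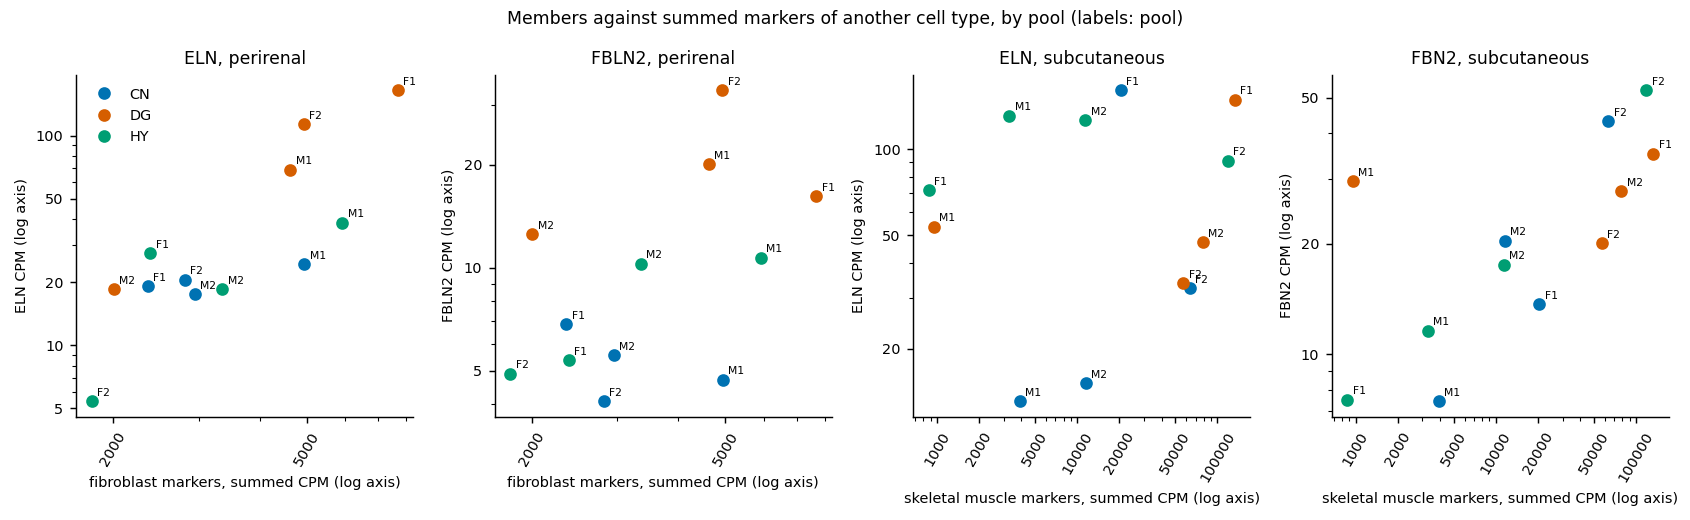
Level of a gene in each pool, as CPM, against the summed CPM of marker genes of another cell type, both on log axes. The markers are those of fibroblasts in perirenal adipose and of skeletal muscle in subcutaneous adipose. In perirenal adipose ELN follows the fibroblast sum (r = 0.83) more closely than FBLN2 does (r = 0.53), and in subcutaneous adipose FBN2 follows the muscle sum (r = 0.68) while ELN does not (r = 0.11).

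Whether a diet difference differed between tissues was tested as an interaction over the 36 libraries. FBLN2 was called for DG vs. HY between the depots: its log2 fold change in subcutaneous adipose was 2.48 ± 0.78 (SE) below that in perirenal adipose (FDR = 0.0490). FBLN2 was higher under DG than HY in perirenal adipose (20.5 ± 8.95 against 7.83 ± 3.11 CPM, n = 4 each) and lower in subcutaneous adipose (3.63 ± 2.22 against 7.80 ± 3.87 CPM). The background was high, with 6.92% of the 13280 genes called. ELN (-2.59 ± 0.87, FDR = 0.0645) and LTBP4 (-1.39, FDR = 0.0784) lay the same way without a call.

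Since the same pools were taken for every tissue, the pool was also fitted as a block, and FBLN2 (FDR = 0.0268) and LTBP4 (-1.44, FDR = 0.0337) were then called. The background stayed high, with 826 of the 13280 genes called with the block against 919 without it. The FBLN2 call was lost with relative log expression scaling and without the filter on low counts, and it was made in 10 of 36 fits that left out 1 library (FDR 0.0120 to 0.120). Without the 6 subcutaneous pools rich in muscle transcripts the interaction was -3.07 for ELN, -2.96 for FBLN2 and -1.81 for LTBP4. The subcutaneous DG group was then 1 pool (M1) whose spread was taken from the other groups, so no calls are given. ELN, FBLN2 and LTBP4 were called without subcutaneous CN F1 alone (FDR = 0.0243, 0.0120 and 0.0139). That library is in no group of this contrast and enters it through the shared spread, the scaling and the filter on low counts. The share of all genes called without that library is not given here.

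No member was called in the other 8 interactions by edgeR's test, and 0 to 4 members of each were at an unadjusted p below 0.05. The share of genes called was 0.497% for DG vs. HY and 0.0226% for DG vs. CN between subcutaneous adipose and muscle, 0.00753% for DG vs. CN between the depots, and 0.0% in the rest. LTBP4, called by diet in muscle, had an interaction of -1.16 for DG vs. CN between subcutaneous adipose and muscle (FDR = 0.525) and of -0.70 for HY vs. CN between perirenal adipose and muscle (FDR = 0.872). LTBP3 had -0.96 in the latter (FDR = 0.872). The diet differences of LTBP3 and LTBP4 in muscle were thus not shown to differ from those in the depots. Without the 6 subcutaneous pools rich in muscle transcripts, the HY vs. CN interaction between subcutaneous adipose and muscle was 3.22 for ELN and 3.63 for FBLN2. That left 2 male pools in the subcutaneous CN group. Without CN F1 alone the HY vs. CN interaction was called for FBLN2 between subcutaneous adipose and muscle (3.05, FDR = 0.0274). Between the depots it was then called for LTBP4 (1.31, FDR = 0.0436). The share of all genes called without CN F1 is not given here.

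The members fell into groups by how they varied from pool to pool, described here as r of log2(CPM + 1) over the 12 pools of a tissue. The groups were picked after the correlations were seen, and pools of a tissue share library depth and cell makeup. Within ELN, FBLN2, LTBP3 and LTBP4, the 6 pairs had r of 0.80 to 0.98 in the subcutaneous and 0.63 to 0.88 in the perirenal depot, but -0.21 to 0.78 in muscle. In muscle LTBP3 and LTBP4 made the closest pair of these (0.78). Within FBN1, FBN2, FBLN1, FBLN5 and LTBP1, the 10 pairs had r of 0.65 to 0.95 in muscle, 0.69 to 0.93 in perirenal and 0.04 to 0.93 in subcutaneous adipose. Over all 45 pairs the median r was 0.24 in muscle, 0.72 in perirenal and 0.0 in subcutaneous adipose.

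**Figure D5:**
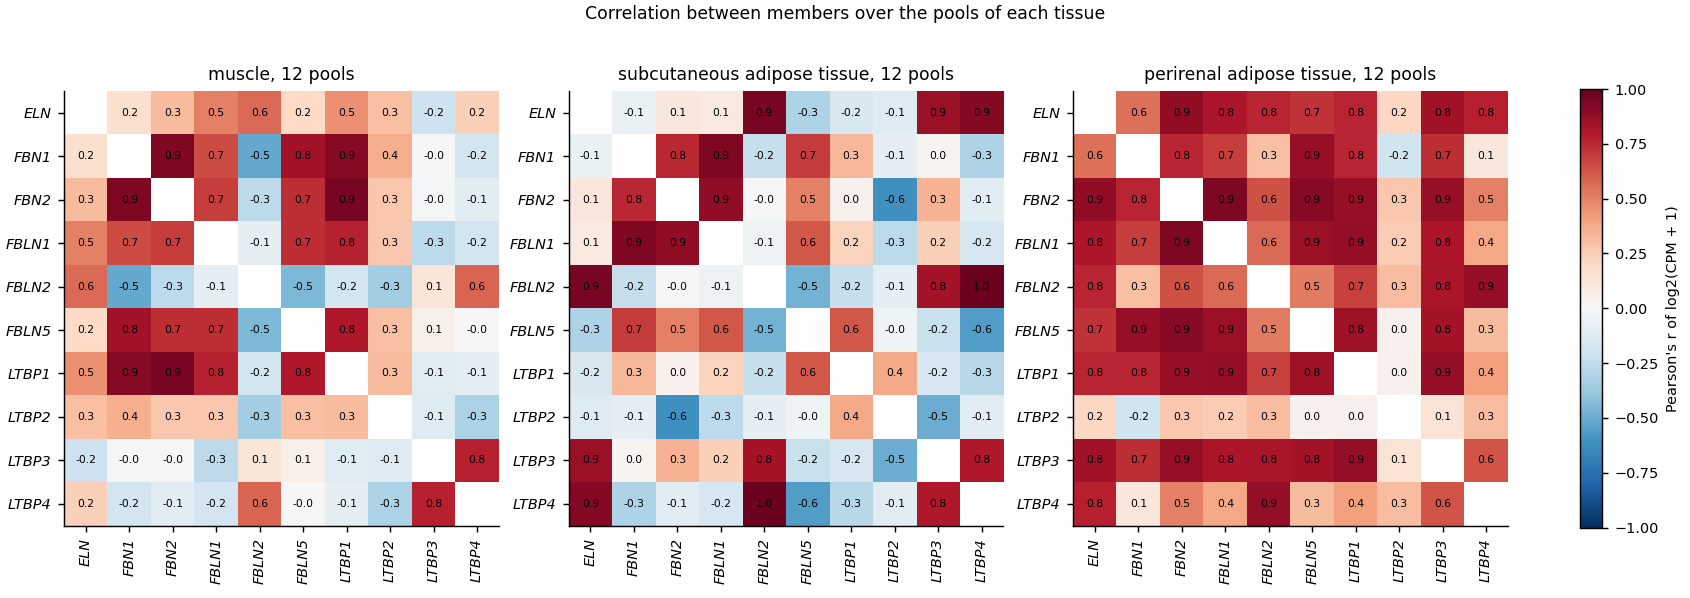
Pearson r between the 10 genes over the 12 pools of each tissue, on log2(CPM + 1). Most pairs are positive in perirenal adipose (median 0.72), whereas in subcutaneous adipose ELN, FBLN2, LTBP3 and LTBP4 form a block of their own (0.80 to 0.98).

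Fibroblast markers went with the fibrillin group in muscle as well, at r of 0.91 for LTBP1, 0.87 for FBN1, 0.86 for FBN2, 0.82 for FBLN1 and 0.75 for FBLN5. In subcutaneous adipose r was 0.97 for FBLN1, 0.92 for FBN1, 0.87 for FBN2 and 0.65 for FBLN5, but 0.20 for LTBP1. These markers are matrix genes themselves.

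Genes with the most similar pattern were sought among 8887 genes over the 36 libraries after subtracting each tissue mean. For ELN they were MFAP4 (r = 0.851), a microfibril-associated glycoprotein that binds elastin, RAB3IL1 (0.803) and NINJ1 (0.800). For FBN1 they were FSTL1, MFAP5 and EFEMP1 (0.824 each), all of which encode secreted or matrix proteins. For LTBP4 they were HSPG2 (0.949), the basement membrane proteoglycan perlecan, TLN1 (0.948), the integrin adaptor talin, and FKBP8 (0.923).

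Other genes of the pathway were taken from 4 lists. Of the 13 microfibril and elastin partners, 2 rose in muscle in DG vs. CN and the same 2 in HY vs. CN, and none fell. Over all features 1.02% and 2.95% were called there, 179 of 186 and 480 of 536 of them higher than under CN. The same shares are the background for the other lists in muscle. HSPG2, whose product binds microfibrils at basement membranes, was at 106 ± 43.6 CPM in CN muscle, 274 ± 49.4 under DG and 217 ± 18.0 under HY (n = 4 each), with log2 fold changes of 1.36 ± 0.22 (FDR = 0.0151) and 1.03 (FDR = 0.0306). EMILIN1, a glycoprotein at the interface of elastin and microfibril, was at 6.08 ± 2.27, 13.9 ± 1.997 and 12.9 ± 0.897 CPM, with log2 fold changes of 1.18 ± 0.23 (FDR = 0.0288) and 1.08 (FDR = 0.0272).

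Of the 12 cross-linking and assembly genes tested, ATP7A, the copper transporter that loads lysyl oxidase, rose in muscle in HY vs. CN (log2 1.5 ± 0.32, FDR = 0.0296), from 2.26 ± 0.811 to 6.35 ± 2.21 CPM. Of the elastin-degrading proteases and their inhibitors, MMP14, a membrane-bound matrix metalloproteinase, rose in the same comparison (log2 0.62 ± 0.15, FDR = 0.0463), from 37.1 ± 6.93 to 57.3 ± 5.97 CPM. None of the TGF-beta ligands, receptors, activators and targets was called in any diet comparison in any tissue by edgeR's test, with 0 to 4 of 18 to 20 tested higher and 0 to 1 lower at an unadjusted p below 0.05. In perirenal DG vs. CN 0.0% of all 17925 features were called by edgeR's test, and 9.85% were at an unadjusted p below 0.05. None of the 13 partners was called there, and 7 were at an unadjusted p below 0.05, all of these higher under DG. The median log2 fold change of the 13 partners was 0.58. Among them MFAP4 had 1.97 (FDR = 0.199) and HSPG2 1.04 (FDR = 0.0735).

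Between tissues, 3 of the 13 partners were called higher and 8 lower in perirenal adipose than in muscle, and 3 and 6 in subcutaneous adipose. Of all 13280 genes, 79.7% and 72.2% were called in these comparisons. The partners' counts were close to those shares, and the same shares are the background for the other lists below. MFAP5, a microfibril-associated glycoprotein, was lower in perirenal adipose than in muscle (log2 -1.34) and HSPG2 was lower in both depots (-1.0 in perirenal and -2.16 in subcutaneous adipose). LOX, the lysyl oxidase that cross-links elastin and collagen, was at 146 ± 54.2 CPM in subcutaneous adipose, 2.86 above muscle and 3.22 above perirenal adipose on the log2 scale, while ELN was highest in muscle. Of the 12 cross-linking and assembly genes tested, 5 were called higher and 4 lower than in muscle in each depot. Of the 20 genes of the TGF-beta list tested, 6 were higher and 10 lower in perirenal adipose and 10 higher and 8 lower in subcutaneous adipose. TGFBI, a matrix protein induced by TGF-beta, was lower in both (-1.78 and -0.69).

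Other abundant genes of these lists differed between tissues as well. ADAMTSL4, which binds fibrillin microfibrils, was lower than in muscle by 3.65 on the log2 scale in perirenal and by 1.62 in subcutaneous adipose, from a mean of 154 CPM in muscle. FKBP10, a collagen and elastin chaperone, was above muscle by 0.48 and 1.83 in the same order, but part of its counts come from a locus that also carries the name NT5C3B. BGN, the proteoglycan biglycan, and MMP2, a gelatinase that also cleaves elastin, were not called between any tissues. Of the 9 proteases and inhibitors tested, 3 were higher and 2 lower in perirenal adipose than in muscle, and 1 and 2 in subcutaneous adipose. The shares of all genes called were 79.7% and 72.2%. TIMP3, a matrix-bound inhibitor of metalloproteinases, was lower in subcutaneous adipose than in muscle (-0.74), and CTSK, the elastin-cleaving cathepsin K, was lower in both depots (-0.72 in perirenal and -0.66 in subcutaneous adipose), with part of its counts from a locus that also carries the name ARNT. ITGAV, an integrin chain that can activate latent TGF-beta, was lower in both depots (-0.37 and -0.33), and SMAD4, the shared signal carrier of the pathway, differed by -0.2 in perirenal and 0.12 in subcutaneous adipose.

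Sex of the pool was compared within each tissue, with 6 female and 6 male pools. No member was called in any tissue by edgeR's test, where 0.0% of features were called in muscle and in subcutaneous adipose and 0.0223% in perirenal adipose. At an unadjusted p below 0.05 there were 698, 2635 and 584 features, and DESeq2 called 13, 125 and 47. The member median for male minus female was -0.09 in muscle, against -0.51 in the subcutaneous and -0.007 in the perirenal depot on the log2 scale. The farthest from 0 was ELN in subcutaneous adipose (-0.98 ± 0.67, FDR = 0.466).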

How the data were processed

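Pooled RNA of fetal muscle and of subcutaneous and perirenal adipose was sequenced by the authors, aligned with TopHat2 2.0.4 and assembled per tissue with Cufflinks 2.1.1 according to the submitters' processing notes. The authors deposited raw counts per locus made with HTSeq, whose settings, strand use and treatment of reads with several matches are not given in the sources used here. The values were not normalized before deposit.

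Loci of the same gene name were summed, and samples were grouped by the labelled tissue and diet. The tests were those of edgeR 4.0.16 (quasi-likelihood, TMM, edgeR's filter on low counts, R 4.3.3) with Benjamini-Hochberg adjustment. Diets were compared within each tissue (18156, 17744 and 17925 features in muscle, subcutaneous and perirenal adipose) and sexes in a separate comparison. Tissues and interactions were fitted over 36 libraries on 13280 genes named in all tissues. SEs were derived from the F statistic and are approximate. The procedure was tested on simulated data.

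No pair of the 54 within groups agreed within sampling noise (lowest chi-square per degree of freedom 9.90). Labels name separate pools, but some share dams, so p-values measure the spread between pools. Between tissues, same-named pools were taken to pair by origin, although their deviations correlated at only 0.08 on average. Total counts had medians of 20143802 (muscle), 13881270 (subcutaneous) and 10776612 (perirenal), and low genes such as LTBP3 and FBLN2 carry the most counting error.

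The members and lists were chosen with earlier results of these data known. All 10 members are named in every comparison. Of each pathway list, genes at FDR ≤0.05 with a mean of at least 50 counts were named, at most 3 per diet comparison by size of change, together with examples among the 3 most abundant for tissues and a few values chosen after they were seen (MFAP4 and HSPG2 in perirenal adipose). Alternatives were DESeq2 1.42.0, the edgeR likelihood-ratio test, other scaling, no filter, loci not summed, thinned counts, only the compared diets, marker covariates, a replicate block and leaving out each pool. No sequence of a member was used here. A result that needs a withheld item is not reported here.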

Additional observations from a re-analysis of the deposited data

Results flagged for a closer look

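In 9 of the 90 groups of 4 pools (10 genes, 9 groups each) 1 pool stood apart from the other pools of its group by Dixon's test. Chance gives about 1 in 20 groups where values are normally distributed. The test was run on CPM without a log, and the genes covary over the same pools. The 90 groups are thus not separate observations, and the number flagged is not compared with that rate. Subcutaneous pool CN F1 did so for ELN (161.2 CPM against 13.06 to 32.54 in the other pools), FBLN2 (12.06 against 0.4498 to 1.373) and LTBP4 (63.48 against 12.0 to 14.58). Subcutaneous pool DG F1 did so for ELN (149.0 CPM against 33.85 to 53.49) and FBLN2 (6.942 against 2.176 to 2.751). LTBP1 was high in subcutaneous DG M1 (663.8 CPM against 201.6 to 258.9) and low in subcutaneous HY F2 (205.7 against 296.6 to 313.0). In perirenal adipose FBLN1 was high in HY M1 (42.43 CPM against 15.03 to 17.31) and LTBP2 was high in DG F2 (117.6 against 88.42 to 91.44). The DG vs. HY difference of FBLN2 differed between subcutaneous and perirenal adipose by -2.48 on the log2 scale in edgeR's interaction test (FDR = 0.0490).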

How the results depend on the processing

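Counts of members called at FDR ≤0.05 moved as follows. Muscle DG vs. CN (1 called) gave 2 with DESeq2 and with the likelihood-ratio test, and 0 with the compared diets only, library totals only, loci not summed, no filter or thinned counts. Muscle HY vs. CN (2 called) gave 1 with the compared diets only, 0 with library totals only or thinned counts, and 1 with the replicate block. Perirenal DG vs. CN (0 called) gave 2 with DESeq2, the likelihood-ratio test, library totals only or no filter, and 1 with the compared diets only or loci not summed. Perirenal DG vs. HY (0 called) gave 1 with DESeq2 and the likelihood-ratio test. The DG vs. HY interaction between the depots (1 called) gave 0 with relative log expression scaling or no filter, 2 with library totals only and 2 with the pool as replicate block. Leaving out the 6 subcutaneous pools rich in muscle transcripts, a choice added after the data were seen, leaves 1 subcutaneous DG pool (M1) and 2 CN pools. No count is therefore given for the DG vs. HY interaction without those pools. The HY vs. CN interaction (0 called) then gave 2 between subcutaneous adipose and muscle, where 130 of 13823 genes were called. Between the depots it gave 3, where 380 of 13823 genes were called. With all pools 0 of 13280 genes were called in either. Subcutaneous against perirenal adipose (8 called) gave 5 without those pools. Of all genes 7558 of 13823 were then called, against 8875 of 13280 with all pools. The cause of these shifts was not tested.

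Leaving out 1 pool at a time gave 0 to 1 for muscle DG vs. CN, 0 to 2 for muscle HY vs. CN, 0 to 2 for perirenal DG vs. CN, 7 to 9 for subcutaneous against perirenal adipose and 0 to 3 for the DG vs. HY interaction between the depots. It gave 0 to 1 for the DG vs. HY and HY vs. CN interactions between subcutaneous adipose and muscle and for HY vs. CN between the depots. Within a tissue the mean r of same-numbered deviations was -0.046 for muscle, 0.21 for the subcutaneous and 0.052 for the perirenal depot. For other numbers it was 0.019, -0.076 and -0.017. Same-numbered pools are of the same fetal sex, so the block there also carries sex. In subcutaneous DG vs. HY the block gave 281 calls over all features, against 0 without it.

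Over all features, muscle DG vs. CN had 186 calls against 676 with DESeq2, 613 with the likelihood-ratio test and 2 with the compared diets only. Muscle HY vs. CN had 536 against 1333, 1143 and, with library totals only, 274. No called value changed sign. LTBP3 and FBLN2 in subcutaneous adipose, at 2 to 96 and 3 to 194 counts per pool, are limited by depth.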
